A study of Homo sapiens with 4 samples.

Results

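The genes described are 44 genes of DNA replication and deoxynucleotide supply: the origin recognition and licensing factors, the replicative helicase and its activators, the primase and polymerases, the sliding clamp and its loader, the flap nuclease and ligase, the single-strand binding protein, enzymes that make deoxynucleotides, and fork protection proteins. They were taken by name from a fixed list, and each gene was represented by its brightest probe set. Of the 44, 42 had a probe set of their own among the 19798 genes of the array; GINS1 and TYMS had none and have no value here. All arrays are of HCT-116, an established colon carcinoma line, in a form the labels call dicer-; Dicer is the nuclease that processes precursors into mature microRNAs, and the mock cells carry the same alteration. What the alteration is, and whether the line is a single clone, the labels do not say. Total RNA was taken 24 h after transfection. There was 1 array with the segmented-guide miR-124 duplex at 10 nM (G10.12/P in the labels) and 1 with its intact-guide form at 10 nM (G/P). The other 2 arrays were labelled as mock transfections, Control #1 and Control #2. The series asks whether activity directed by the microRNA seed persists when the guide strand is cut into segments.

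Replication starts when ORC and CDC6 bind origins in G1 and, with CDT1, load the MCM2 to MCM7 ring. In S phase CDC45 and the GINS complex join the ring to make the active helicase, MCM10 helps it start, and DNA polymerases epsilon, delta and alpha-primase copy the strands with the clamp PCNA, which the RFC complex loads. Ribonucleotide reductase and thymidylate enzymes supply the deoxynucleotides. Most of these genes are transcribed at the G1 to S boundary under E2F transcription factors, and growing carcinoma lines express them strongly. miR-124 is a neuronal microRNA known for lowering PTBP1 and several cell cycle kinases.

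The deposited intensities of all arrays had been normalized together, and each is given below as its log2 level. DICER1 stood at 10.80 with the segmented duplex and 11.13 with the intact duplex, against 11.21 and 11.28 on the mock arrays, and did not pass the test in either comparison. Cells with unaltered Dicer were not analysed here, so these values do not check the label. The known miR-124 target PTBP1 stood at 11.08 with the segmented and 9.73 with the intact duplex, against 12.27 and 12.24 on the mock arrays. The target CD164 stood at 9.72 with the segmented and 9.40 with the intact duplex, against 11.78 and 11.98 on the mock arrays. VAMP3, also a known target, stood at 8.42 with the segmented and 8.07 with the intact duplex, against 11.18 and 11.12 in mock cells. Segmented minus intact was 1.35 for PTBP1, 0.32 for CD164 and 0.35 for VAMP3. The colon epithelial markers EPCAM, CDH1, KRT18, KRT19 and CDX2 had mock means between 7.69 and 13.04, while VIL1 (2.98) and LGALS4 (3.34) lay near the lowest values of the table, and KRT8 had no probe set of its own. Of the 7 measured, CDH1 (0.79, limma adjusted p = 0.0228) and CDX2 (0.69, 0.0291) rose with the intact duplex, and no other passed in either comparison; their summed intensity was 14700.3 with the segmented and 15190.3 with the intact duplex, against 13251.8 and 13594.1 on the mock arrays. Of 12 measured markers of other cell types 2, COL1A1 and SNAP25, rose with the intact duplex, and no other passed in either comparison. For both marker lists the background with the intact duplex was 14.5% of all genes that rose and 10.4% that fell. The summed intensity of the 12 was 2361.1 with the segmented and 2591.7 with the intact duplex, against 1682.9 and 1661.0 on the mock arrays. Over the arrays the neuron marker SYT1 lay between 10.08 and 10.61 and the fibroblast marker COL1A1 between 8.41 and 9.76. PTPRC, CD3E, LYZ and CDH5 lay between 1.95 and 3.74 on every array. The part of these markers in the results below was not tested.

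Replication genes were lower with the intact duplex. By limma at an adjusted p of 0.05 over all genes, 31 of the 42 measured members fell, which is 73.8% of them, and 0 rose. The background was 10.4% of all genes that fell and 14.5% that rose. At an unadjusted limma p under 0.05, 0 members rose, against 22.6% of all genes. The median log2 change of the members was -1.01, against 0.02 over all genes, and the range ran from -3.69 for DTL to 0.36 for LIG1. By size alone, 27 members lay at least 1.5-fold below both mock arrays, against 9.52% of all genes, and between the mock arrays themselves 0 members and 3.23% of genes lay that far apart. In bulk RNA, fewer cells that express a gene and less of its RNA per cell cannot be told apart. Each duplex has 1 array, so limma assumes that it varies like the mock pair, and since no label ties the mock arrays to separate cultures, the p-values may reflect technical spread alone. All 31 members also passed as lower in each of 6 alternative fits, described with the processing.

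**Figure D1:**
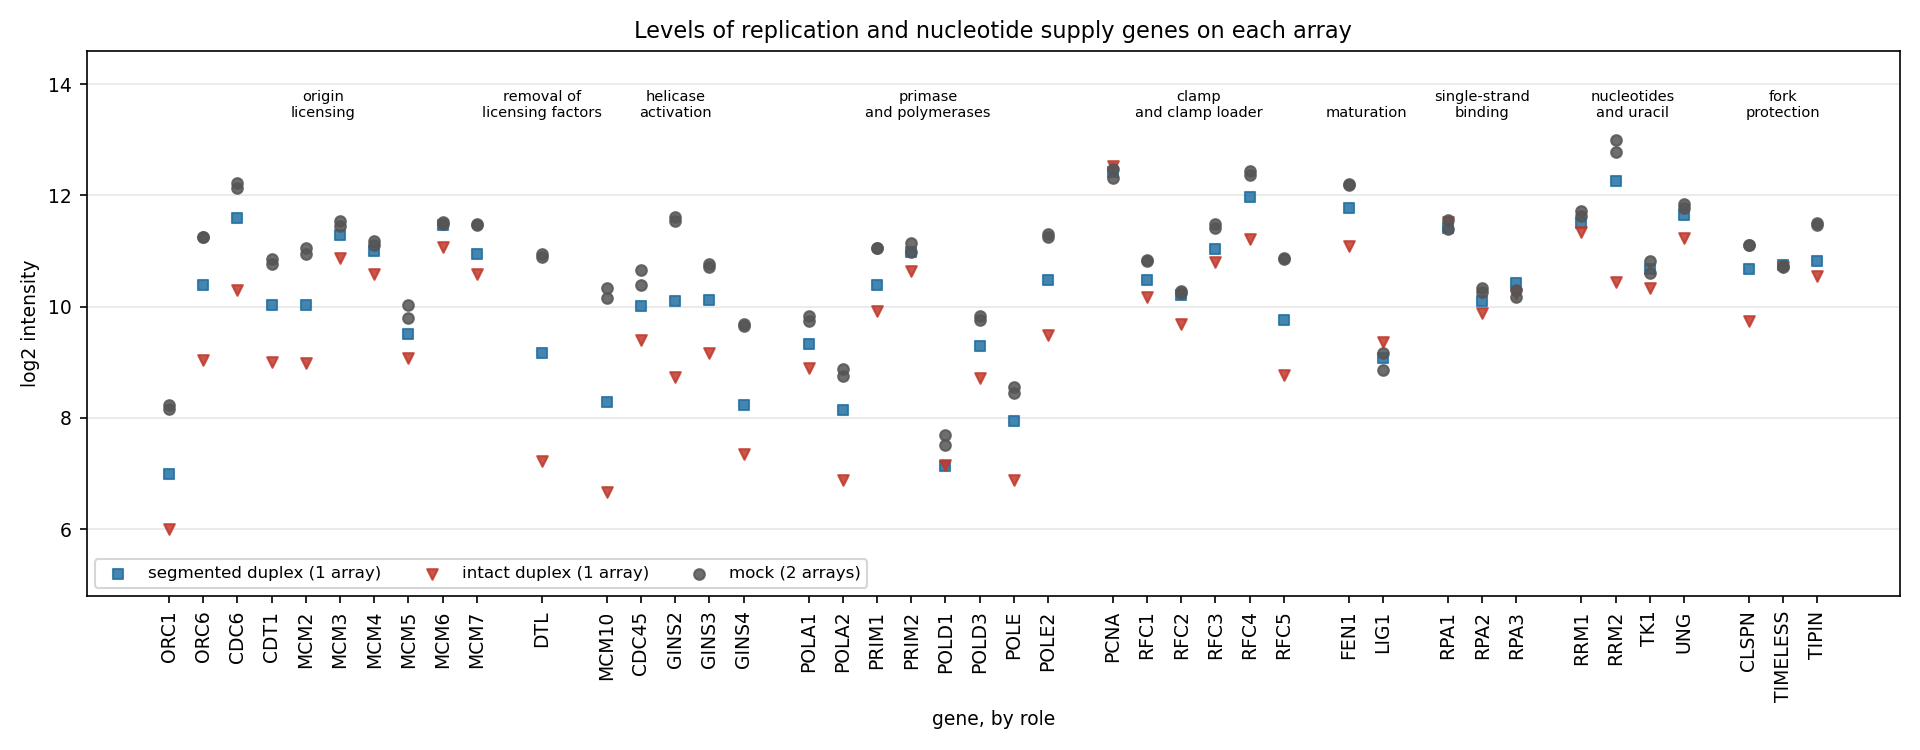
Log2 intensity (vertical axis) of the 42 measured genes, grouped by role along the horizontal axis, with squares for the segmented duplex, triangles for the intact duplex and circles for each of the 2 mock arrays. In 35 genes the triangle lies below the square and the square below both circles. In PCNA, TIMELESS, RPA1, RPA3, LIG1 and TK1 a duplex value lies between the circles.

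The factors that mark and license origins were lower. All 10 had a negative change with the intact duplex, against 9602 of 19798 genes, and 9 passed, with a median of -1.35. ORC1, the large subunit of the origin recognition complex, had a log2 level of 6.99 with the segmented duplex and 6.01 with the intact duplex, against 8.24 and 8.17 on the mock arrays. For ORC6, the smallest subunit, the levels were 10.38 with the segmented and 9.04 with the intact duplex, against 11.25 and 11.26 on the mock arrays. In both genes the mock arrays were close together, the segmented array lay below them and the intact array lay lowest. With the intact duplex the log2 change was -2.19 for ORC1 and -2.22 for ORC6, each with a limma SE of 0.12, and the adjusted p was 0.00824 for ORC1 and 0.00822 for ORC6. CDC6, the loader that brings the helicase ring to ORC, stood at 11.60 with the segmented and 10.30 with the intact duplex, against 12.13 and 12.23 in mock cells. Its partner CDT1 stood at 10.04 with the segmented and 9.01 with the intact duplex, against 10.77 and 10.86 in mock cells. In both genes each duplex array lay below both mock arrays, as in 37.5% (segmented) and 39.8% (intact) of all genes. With the intact duplex both fell, CDC6 with a log2 change of -1.88 and CDT1 of -1.80.

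The 6 subunits of the helicase ring did not move by the same amount. MCM2 stood at 10.04 with the segmented and 8.99 with the intact duplex, against 11.06 and 10.94 on the mock arrays, and fell by 2.01 with the intact duplex (limma SE 0.13, adjusted p = 0.00829). The other subunits had smaller changes with the intact duplex, from -0.90 for MCM7 to -0.43 for MCM6. MCM7, MCM5 (-0.84), MCM3 (-0.62) and MCM4 (-0.56) passed, and MCM6 did not (limma adjusted p = 0.0768), though it passed as lower in 5 of the 6 alternative fits (limma adjusted p between 0.000242 and 0.0873 over the 6). The brightest probe sets of MCM4 and MCM6 gave the smallest change of each gene: the 3 dimmer probe sets of MCM4 gave -0.89, -1.01 and -1.35, while the middle probe set of MCM6 gave -0.44, close to its brightest, and the dimmest -1.61. The difference between MCM2 and the other subunits was not tested.

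DTL and 2 factors that switch the helicase on, MCM10 and GINS2, held the 3 largest changes with the intact duplex among the members. DTL is the substrate receptor of the CRL4 ubiquitin ligase that removes CDT1 once replication has begun. It had a log2 level of 9.17 with the segmented duplex and 7.23 with the intact duplex, against 10.89 and 10.95 on the mock arrays. MCM10, which helps the loaded helicase start, stood at 8.28 with the segmented and 6.67 with the intact duplex, against 10.16 and 10.33 on the mock arrays. In both genes the intact array lay far below the segmented array, which lay well below both mock arrays. With the intact duplex DTL was 12.9-fold lower, a log2 change of -3.69 with a limma SE of 0.12 and an adjusted p of 0.00822. MCM10 was 11.9-fold lower, at -3.58 with an SE of 0.14 and the same limma adjusted p of 0.00822.

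GINS, the 4-subunit complex that joins CDC45 to the ring, was measured through 3 of its genes. GINS2 stood at 10.11 with the segmented and 8.74 with the intact duplex, against 11.61 and 11.54 on the mock arrays. GINS4 stood at 8.23 with the segmented and 7.36 with the intact duplex, against 9.66 and 9.68 on the mock arrays. In both genes the intact array lay lowest and the segmented array below both mock arrays, an order found in 19.6% of all genes. With the intact duplex GINS2 (log2 change -2.84) and GINS4 (-2.31) fell (limma adjusted p = 0.00822 for each). GINS3 (-1.58) and CDC45 (-1.12) fell too, so all 5 measured genes of helicase activation passed with the intact duplex, with a median of -2.31.

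Promoter sequences are shown for DTL, GINS2 and MCM10, which had the 3 largest falls, and for LIG1, which did not pass and had the highest change of the members. They come from RefSeq on GRCh38.p14 and run from 250 bases before to 50 after the annotated start, 5′ to 3′ on the gene's strand: DTL at chr1:212035498-212035797 (+), GINS2 at chr16:85688905-85689204 (-), MCM10 at chr10:13161308-13161607 (+) and LIG1 at chr19:48170295-48170594 (-). Capitals mark E2F words (TTTCCCGC, TTTCGCGC, TTTGCCGC or TTTGGCGC on either strand) and CCAAT on either strand, the word bound by NF-Y.
DTL: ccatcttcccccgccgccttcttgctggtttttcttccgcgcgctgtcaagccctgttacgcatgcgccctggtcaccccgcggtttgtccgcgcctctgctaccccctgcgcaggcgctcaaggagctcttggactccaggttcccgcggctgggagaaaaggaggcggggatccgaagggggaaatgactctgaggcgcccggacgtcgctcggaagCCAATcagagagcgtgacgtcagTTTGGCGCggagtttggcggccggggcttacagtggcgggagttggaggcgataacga
GINS2: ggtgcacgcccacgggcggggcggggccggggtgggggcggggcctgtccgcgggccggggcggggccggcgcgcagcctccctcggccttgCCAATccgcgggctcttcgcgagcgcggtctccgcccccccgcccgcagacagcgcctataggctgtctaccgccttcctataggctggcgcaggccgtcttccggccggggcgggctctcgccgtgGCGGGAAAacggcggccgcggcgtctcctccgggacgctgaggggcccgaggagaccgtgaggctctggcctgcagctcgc
MCM10: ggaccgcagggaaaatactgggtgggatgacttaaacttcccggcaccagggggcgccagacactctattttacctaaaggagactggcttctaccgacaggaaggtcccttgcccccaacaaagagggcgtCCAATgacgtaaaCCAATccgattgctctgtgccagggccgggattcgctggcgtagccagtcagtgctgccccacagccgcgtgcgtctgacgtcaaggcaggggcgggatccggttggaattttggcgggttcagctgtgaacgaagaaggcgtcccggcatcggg
LIG1: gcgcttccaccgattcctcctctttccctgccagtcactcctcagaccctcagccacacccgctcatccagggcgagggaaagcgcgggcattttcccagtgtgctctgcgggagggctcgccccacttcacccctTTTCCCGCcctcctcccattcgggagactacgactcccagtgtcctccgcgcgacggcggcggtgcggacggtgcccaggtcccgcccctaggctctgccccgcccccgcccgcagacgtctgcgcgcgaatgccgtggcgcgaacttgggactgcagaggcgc

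The DTL window held an E2F word 8 bases and a CCAAT word 31 bases before the start, and the GINS2 window held an E2F word on the opposite strand 31 bases before it and a CCAAT word 158 bases before it. The MCM10 window held no E2F word of these spellings and 2 CCAAT words, and the LIG1 window held an E2F word 114 bases before the start. Of the 38 listed genes with a window in the RefSeq table, 21 (55.3%) held an E2F word, against 3.99% of all 27305 genes with a window and 5.28% of the 15403 of them measured on the arrays. For CCAAT the shares were 65.8% of the 38 genes, against 39.7% of all genes with a window. Among members that fell with the intact duplex 16 of 27 held an E2F word, and among measured members that did not pass 3 of 9, namely LIG1, PCNA and MCM6, whose call depended on the fit. For CCAAT these counts were 18 of 27 and 6 of 9, the same share of 66.7%. Among members that fell with the segmented duplex 3 of 7 held an E2F word and 6 of 7 a CCAAT word. A word match is a description of these windows, and no match says only that these letters are not in the window.

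Polymerase and primase genes were lower with the intact duplex in 6 of 8 cases. POLA2, the regulatory subunit of polymerase alpha, stood at 8.14 with the segmented and 6.88 with the intact duplex, against 8.88 and 8.76 on the mock arrays. POLE, the catalytic subunit of the leading strand polymerase epsilon, stood at 7.94 with the segmented and 6.89 with the intact duplex, against 8.55 and 8.45 in mock cells. POLE2, its second subunit, stood at 10.49 with the segmented and 9.50 with the intact duplex, against 11.30 and 11.26 in mock cells. In each of these genes both duplex arrays lay below both mock arrays, the intact one lower, an order found in 19.6% of all genes. With the intact duplex POLA2 (log2 change -1.94), POLE2 (-1.78) and POLE (-1.62) fell, with limma adjusted p-values of 0.00829, 0.00829 and 0.00906 in that order. The primase subunit PRIM1 (-1.12), the delta subunit POLD3 (-1.08) and the alpha catalytic subunit POLA1 (-0.89) fell as well, while the other primase subunit PRIM2 (-0.42) and the delta catalytic subunit POLD1 (-0.45) did not pass. In the alternative fits PRIM2 passed as lower in 4 of 6 and POLD1 in 5 of 6.

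POLA1 had a second probe set that differed from the brightest. It stood at 6.20 with the segmented and 3.83 with the intact duplex, against 8.62 and 8.46 on the mock arrays, a change of -2.34 with the segmented and -4.72 with the intact duplex. The brightest probe set gave -0.46 and -0.89 for the same comparisons. Both went the same way, no detection call shows whether 3.83 lies above background, and the sources used here do not say which part of the POLA1 transcript each reads.

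All 5 RFC genes, whose products open PCNA and close it around DNA, fell with the intact duplex. RFC5 stood at 9.76 with the segmented and 8.77 with the intact duplex, against 10.85 and 10.87 on the mock arrays, and fell by 2.10 with the intact duplex (limma SE 0.12, adjusted p = 0.00824). The changes of the other loader genes were -1.18 for RFC4, -0.65 for RFC1, -0.65 for RFC3 and -0.56 for RFC2. PCNA itself stood at 12.43 with the segmented and 12.53 with the intact duplex, against 12.32 and 12.48 on the mock arrays. Its segmented value lay between the mock values and its intact value just above them, and the log2 change with the intact duplex was 0.13 (limma SE 0.14, adjusted p = 0.544). The difference between PCNA and the loader genes was not tested.

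Genes of Okazaki fragment maturation, single-strand binding and fork protection were mixed. FEN1, the nuclease that trims Okazaki fragments, fell by 1.10 with the intact duplex, while LIG1, the ligase that joins them, stood at 0.36 and did not pass (limma adjusted p = 0.242), except as higher with the trended and robust prior. The 3 RPA genes, which coat single-stranded DNA, did not pass either, with changes of 0.04 for RPA1, -0.41 for RPA2 and -0.01 for RPA3. RPA2 passed as lower in 4 of the 6 alternative fits (limma adjusted p between 0.00286 and 0.0853 over the 6), and RPA1 and RPA3 in 0. The second probe set of RPA3 went the other way, at 0.47. Among fork protection genes CLSPN, the checkpoint mediator (-1.37), and TIPIN (-0.94) fell. TIMELESS, which forms a complex with TIPIN, stood at 10.75 with the segmented and 10.72 with the intact duplex, against 10.72 and 10.71 on the mock arrays, and all 4 arrays lay within a few hundredths.

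Of the nucleotide genes RRM2 had the largest change. RRM2 is the small subunit of ribonucleotide reductase and is made in S phase. It had a log2 level of 12.26 with the segmented and 10.45 with the intact duplex, against 12.78 and 13.00 on the mock arrays. Its intact array lay well below the other 3, and its segmented array lay below both mock arrays. RRM2 was 5.42-fold lower with the intact duplex, a log2 change of -2.44 with a limma SE of 0.16 and an adjusted p of 0.00824, and its dimmer probe set gave -3.91. The large subunit RRM1 (-0.33) and the thymidine kinase TK1 (-0.37) did not pass, with limma adjusted p-values of 0.143 and 0.164. In the alternative fits RRM1 passed as lower in 4 of 6 and TK1 in 3 of 6, with limma adjusted p-values from 0.00251 to 0.18 for RRM1 and from 0.00682 to 0.175 for TK1. UNG, which removes uracil from DNA, fell by 0.58.

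**Figure D2:**
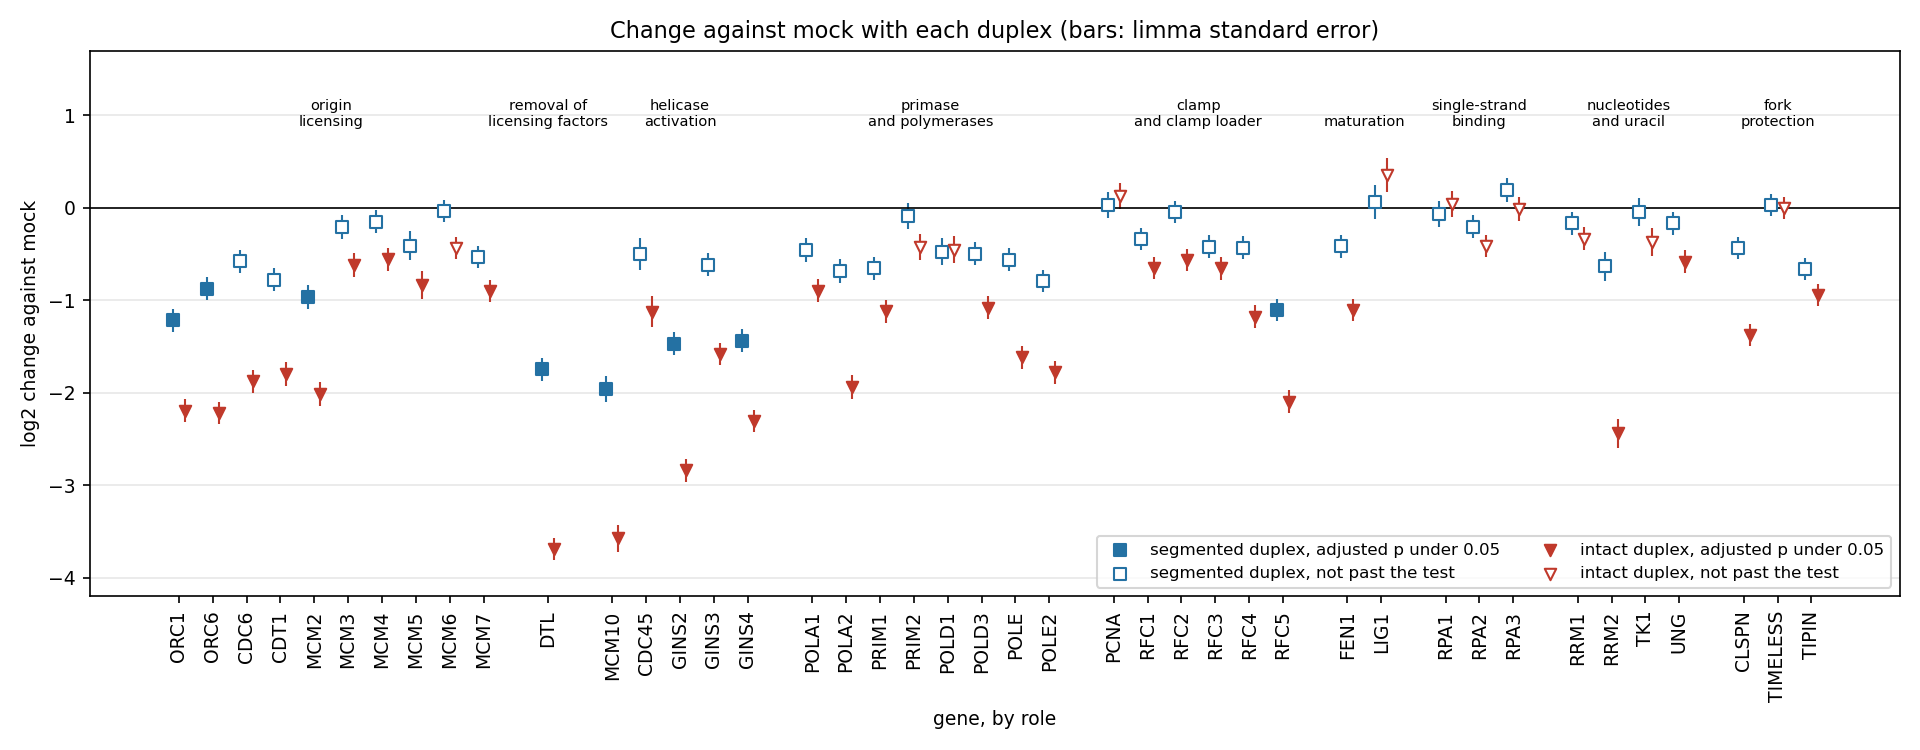
Log2 change against the mean of the mock arrays (vertical axis) for each measured gene by role (horizontal axis), with squares for the segmented and triangles for the intact duplex; bars are limma standard errors and filled symbols mark an adjusted p under 0.05. All 8 filled squares lie below 0, and so do all 31 filled triangles.

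With the segmented duplex the members also had lower levels, and fewer passed. By limma, 8 of 42 members fell and 0 rose, against a background of 2.68% of all genes that fell and 3.31% that rose. At an unadjusted limma p under 0.05, 0 members rose, against 16.2% of all genes. The 8 were DTL, MCM10, GINS2, GINS4, ORC1, ORC6, MCM2 and RFC5, and all 8 also fell with the intact duplex; the comparisons share the mock arrays. MCM10 was 3.90-fold lower (log2 change -1.96, limma SE 0.14, adjusted p = 0.0348) and DTL 3.36-fold lower (-1.75, SE 0.12, adjusted p = 0.0348). The other changes were -1.47 for GINS2, -1.44 for GINS4, -1.22 for ORC1, -1.11 for RFC5, -0.97 for MCM2 and -0.87 for ORC6. The median change of the members was -0.47, against 0.01 over all genes, and 14 members lay at least 1.5-fold below both mock arrays, against 4.89% of all genes.

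The count of 8 depended on the fit. With the dimmest 40% of genes left out it was 28 members, against 15.3% of the genes then tested, and with a trended and robust prior it was also 28, against 10.3%. With 16 intensity units added before log2 it was 25, against 8.17%, and with each array centred on its median 18, against 6.34%. It was 11 with the mean of all probe sets, against 3.19%, and 8 with a further quantile normalization, against 3.25%. The 8 members named above passed in each of these 6 fits. POLE2 (-0.79, limma adjusted p = 0.051) and CDT1 (-0.78, 0.0546) lay just outside the threshold as reported. RRM2, at -0.63, did not pass (limma adjusted p = 0.102), and PCNA (0.03), TIMELESS (0.03), MCM6 (-0.04), RFC2 (-0.04) and TK1 (-0.04) were the members nearest to 0.

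Set directly against each other, the segmented duplex left higher levels of most members than the intact duplex. The difference of segmented minus intact was positive in 38 of 42 members, against 9321 of 19798 genes. Its median was 0.49 in the members, against -0.02 over all genes. In 19 members the segmented array lay at least 1.5-fold above the intact array, against 5.02% of all genes, and in 0 members that far below it, against 4.96%. By limma 0 members and 0 genes of the array differed at an adjusted p of 0.05; 27 members were higher at an unadjusted p under 0.05, against 8.31% of all genes, and 0 were lower, against 8.22%. Both arms have 1 array, so this spread comes from the mock pair alone. With the dimmest 40% of genes left out 22 members were higher by limma, against 8.68% of genes tested. The trended and robust prior gave 29, against 6.82%, and an offset of 16 units 19, against 3.33%.

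This difference and the change with the intact duplex share the intact array, so a low value on it makes both large. DTL was higher with the segmented than with the intact duplex by 1.94 (95% interval 1.54 to 2.34), RRM2 by 1.80 (1.30 to 2.31) and MCM10 by 1.61 (1.15 to 2.07), each with a limma adjusted p of 0.181. GINS2 differed by 1.37, ORC6 by 1.35 and CDC6 by 1.30. At the other end, TIMELESS differed by 0.03 (-0.36 to 0.42), POLD1 by -0.02 (-0.49 to 0.45), PCNA by -0.10 (-0.55 to 0.35) and LIG1 by -0.30 (-0.89 to 0.30). These intervals do not show that the duplexes act alike on those genes. In 35 of 42 members (83.3%) the intact array lay below the segmented array and the segmented array below both mock arrays, an order found in 19.6% of all genes.

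**Figure D3:**
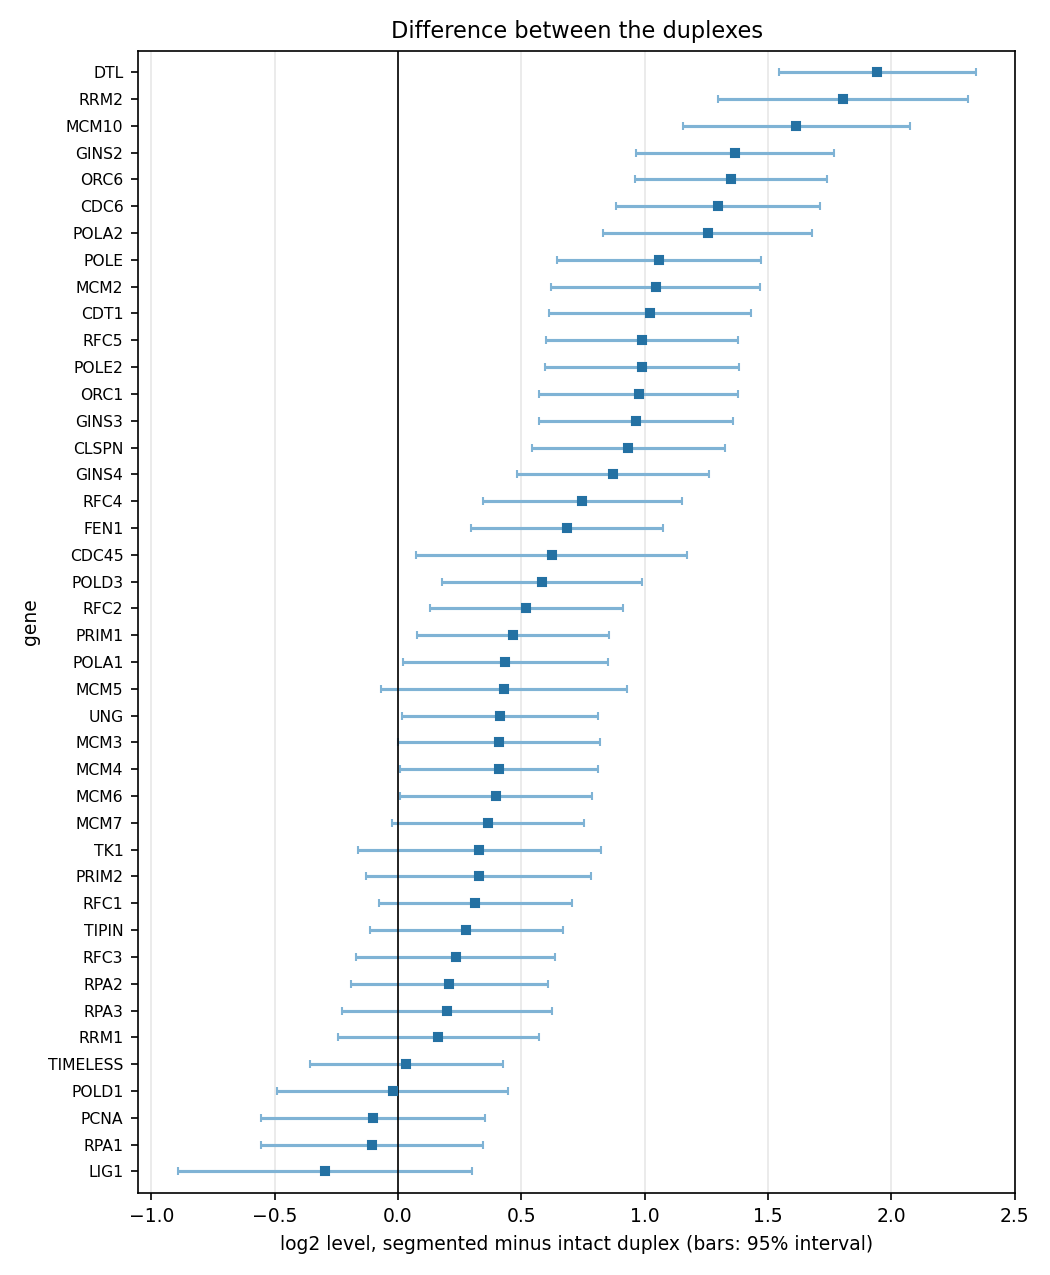
Log2 level with the segmented minus that with the intact duplex (horizontal axis) for each measured gene, sorted, with 95% limma intervals as bars. DTL, RRM2 and MCM10 lie at the top, and 4 genes, POLD1, PCNA, RPA1 and LIG1, lie below 0.

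Probe sets of the same gene mostly went the same way. The 42 members had 71 probe sets, and 18 members had more than 1. With the intact duplex all probe sets went the way of the brightest in 16 of the 18, RPA1 and RPA3 being the exceptions, and with the segmented duplex in 18 of 18. For DTL the 3 probe sets gave -1.75, -1.41 and -1.53 with the segmented and -3.69, -2.91 and -3.06 with the intact duplex. RRM2's 2 probe sets gave -0.63 and -1.72 with the segmented and -2.44 and -3.91 with the intact duplex. GINS4's dimmer probe set gave -0.53 with the segmented and -0.81 with the intact duplex, smaller than its brightest.

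**Figure D4:**
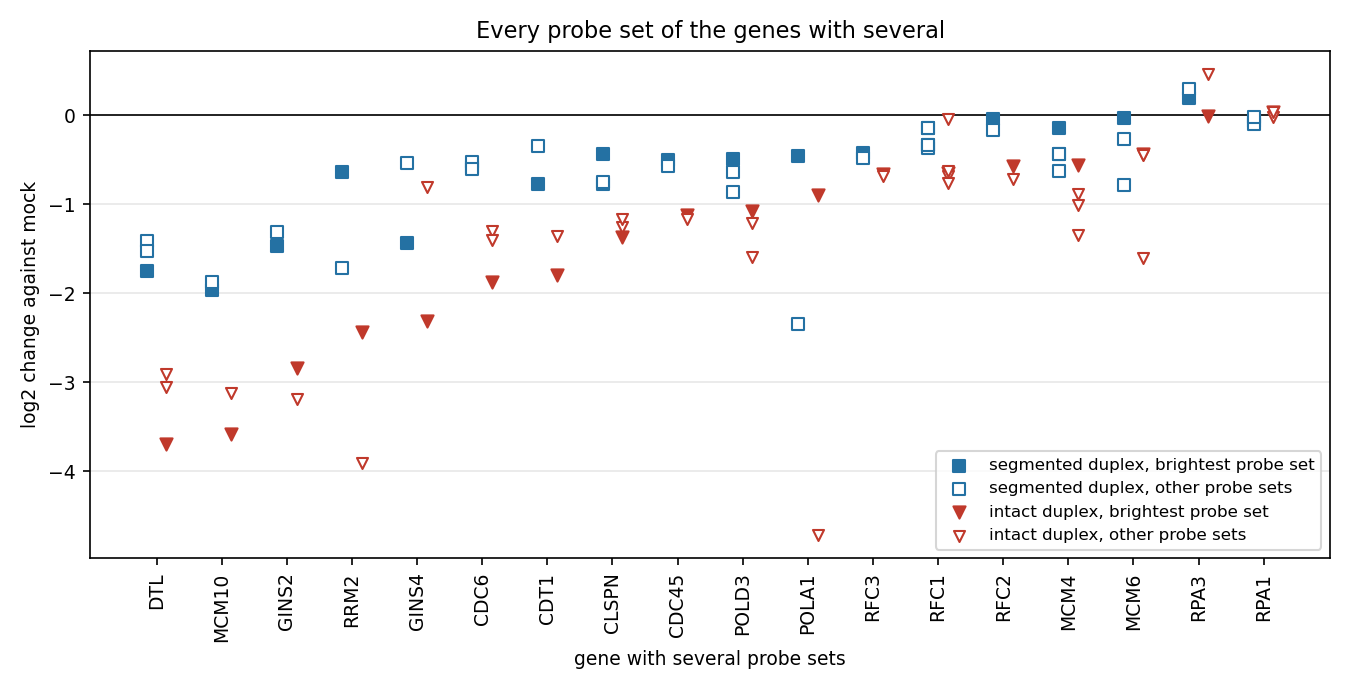
Log2 change against mock (vertical axis) of every probe set of the 18 genes with several (horizontal axis), with squares for the segmented and triangles for the intact duplex and filled symbols for the brightest probe set. The second probe set of POLA1 lies at -2.34 (segmented) and -4.72 (intact), far below the brightest.

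Other genes of replication, not on the list above, were lower in part. Of 45 measured genes of 49 listed, 3 fell and 1 rose with the segmented duplex and 17 fell and 2 rose with the intact duplex, against the backgrounds of 2.68% and 3.31% (segmented) and 10.4% and 14.5% (intact) given above. Their medians were -0.17 with the segmented and -0.34 with the intact duplex. Of the firing and fork factors 7 of 8 fell with the intact duplex: MMS22L (-1.56), TICRR, which brings CDC45 to origins (-1.48), WDHD1 (-1.41), TOPBP1 (-1.34), MTBP (-1.07), RECQL4 (-0.98) and DONSON (-0.61). The clamp unloader ATAD5 (-1.75), DSCC1 of an alternative clamp loader (-1.54) and POLE3, a histone-fold subunit of polymerase epsilon (-1.60), fell as well. POLD4, the smallest subunit of polymerase delta, rose by 1.24 and the mitochondrial thymidine kinase TK2 by 0.80. Of the 10 origin and licensing genes off the list, ORC5 (-0.65) and the CDT1 inhibitor GMNN (-0.60) fell with the intact duplex, and ORC2, ORC3, ORC4, CDC7, DBF4, MCM8, MCM9 and MCMBP did not pass.

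With the segmented duplex MMS22L (-1.01), POLE3 (-0.91) and the nucleotide kinase CMPK1 (-0.82) fell, while POLD4 rose by 0.86 (limma adjusted p = 0.0477). POLD4 missed the threshold with arrays centred on their medians, at 0.67 (limma adjusted p = 0.0516), and CMPK1 with the mean of all its probe sets, at -0.41 (0.131). Only 1 of the 2 CMPK1 probe sets had a negative change with the segmented duplex, and likewise with the intact duplex. KMT5A, a substrate of the ligase that DTL serves, stood at -0.92 with the segmented duplex and did not pass (limma adjusted p = 0.0545), and fell by 1.29 with the intact duplex. The ligase genes DDB1, CUL4A and CUL4B did not pass in either comparison. Segmented minus intact differences were largest for TICRR (1.14), DSCC1 (1.03) and WDHD1 (0.98), and 0 of the 45 genes passed by limma. At an unadjusted limma p under 0.05, 12 were higher and 1 lower, against 8.31% and 8.22% of all genes.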

How the data were processed

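Arrays of total RNA from HCT-116 dicer- cells were made from biotin-labelled cRNA, per the labels' protocols. The authors deposited 1 intensity per probe set and array, made with RMA per the submitters' processing notes (version not given in the sources used here); since RMA gives log2 values, the deposited intensities (2.51 to 22268) were read as values returned to a linear scale. RMA's quantile normalization would remove a shift shared by most genes.

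Log2 values were taken with no pseudocount. Of 52377 probe sets, 35184 had 1 gene in the platform annotation, with symbols updated to RefSeq, 374 had several and 16819 were not listed. The brightest probe set by mean of the 4 arrays stood for each of 19798 genes. Limma 3.58.1 in R 4.3.3 fitted a mean per group with eBayes (1 residual and 2.89 prior degrees of freedom) and Benjamini-Hochberg adjustment over all genes per comparison. The number of arrays limits precision, and no detection call was used. Alternatives were a further quantile normalization, centring on array medians, leaving out the dimmest 40% of genes, a trended and robust prior, the mean of all probe sets, 16 intensity units added before log2, and leaving out a mock array.

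The members and lists were chosen with earlier results of these data known, so list counts are descriptions. By rule, values on every array are given for the 14 members with the largest change with the intact duplex, the 6 with the largest difference between the duplexes and any that rose; PCNA, TIMELESS and the second POLA1 probe set were added after their values were seen. Up to 6 other pathway genes with the largest change were named per comparison by rule, and the remaining pathway genes after their values were seen. Promoter words were chosen the same way.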

Additional observations from a re-analysis of the deposited data

How the results depend on the processing

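For the intact duplex against mock, the count of members that fell was 32 with quantile normalization and with the mean of all probe sets (12.1% and 10.9% of all genes tested), 36 with the offset (2778 of 19798 genes), and 37 with centring (20.6%), with the dimmest genes left out (24.0%) and with the trended and robust prior (15.9%). None rose except with the trended and robust prior, where 1 did (LIG1, 0.36). The median change was -1.0005 with a further quantile normalization, -1.25 with arrays centred on their medians, -1.11 with the mean of all probe sets and -0.99 with the offset of 16 units. Leaving out a mock array leaves no residual degree of freedom and no test. The median then ran from -1.03 to -0.97, and the count at least 1.5-fold lower from 28 to 29. That count needs a member to lie below every mock array used, so leaving out a mock array can only keep or raise it. Centring lowers the change of every gene against mock, the members included, by 0.19 (segmented) and 0.24 (intact). With it 4080 genes fell and 1990 rose with the intact duplex, against 2064 and 2873.

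For the segmented duplex the count was 18 with centring, 28 with the dimmest genes left out, 28 with the trended and robust prior and 25 with the offset, and it was 8 with quantile normalization and 11 with the mean of all probe sets. The median was -0.50 with quantile normalization, -0.66 with centring, -0.53 with the mean of all probe sets and -0.44 with the offset, and -0.52 to -0.45 without a mock array. The count at least 1.5-fold lower was 23 with centring, 16 without mock replicate 1 and 16 without mock replicate 2. Here too, leaving out a mock array could only keep or raise the count. The shares over all genes for these counts are not given here. With the dimmest left out, fewer genes were tested and the eBayes prior was fitted to those genes alone. The cause of the changed counts was not tested.

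For segmented against intact, members higher by limma were 22 with the dimmest genes left out, 29 with the trended and robust prior and 19 with the offset, against 0 otherwise; the median was 0.54 with centring, 0.56 with the mean of all probe sets and 0.49 with the offset. The 1.5-fold count for this pair, 19 to 20, was added after the data were seen.

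Signs turned only in members that did not pass. With the intact duplex these were RPA3 (0.0213 with quantile normalization, 0.23 with all probe sets) and, with centring, PCNA (-0.11), RPA1 (-0.21) and TIMELESS (-0.24), and, without mock replicate 2, RPA1 (-0.0424), RPA3 (0.0514) and TIMELESS (-0.0042). With the segmented duplex they were LIG1 (-0.0097 with quantile normalization, -0.13 with centring) and, with centring, PCNA (-0.16), RPA3 (-0.0019) and TIMELESS (-0.16), without mock replicate 1 PCNA (-0.0511), RPA1 (0.0137) and TK1 (0.0648), and without mock replicate 2 LIG1 (-0.0972). Between the duplexes POLD1 turned, to 0.0175 with quantile normalization and 0.0281 with centring. No detection call was used, so whether the lowest levels with the intact duplex, such as ORC1 at 6.01, lie above background was not tested. No paired analysis was possible because each duplex has 1 array and its label carries no replicate number.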
